A study of Mus musculus with 27 samples.

Results

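Tripartite motif (TRIM) proteins were followed at the RNA level through 9 conditions of mouse bone marrow derived macrophages (BMDM). Members were all array probes whose gene name began with Trim and a digit, 100 probes of 66 genes among the 55681 probes of the array. A probe was kept when the scanner software placed it well above its local background on at least 2 arrays of a condition, which left 68 probes of 47 genes. That is 68% of the TRIM probes, and 55.3% of all probes passed the same filter. The other 19 genes, among them Trim10, Trim31, Trim54, Trim63, Trim66 and Trim72, had no such probe and were not followed further. Of the 47 genes, 28 were read by 1 probe, 17 by 2 and 2 by 3, and 50 of the 68 probes passed in all 9 conditions. Where a gene had several probes, the one with the highest mean stood for it and others are given beside it where the call differed.

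Most TRIM proteins join a RING finger, which makes them E3 ubiquitin ligases, to B-box domains and a coiled coil, and differ in the domain at the carboxyl end that picks the target. Many carry a PRYSPRY domain there, and several of these restrict viruses or tune the pathways that sense foreign nucleic acid. The TIF1 group (Trim24, Trim28 and Trim33) carries a PHD finger and a bromodomain instead and acts on chromatin in the nucleus. A number of TRIM genes are known as interferon-stimulated genes in macrophages.

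The BMDM came from female C57BL/6 mice 6 to 8 weeks old and were grown for 7 days in medium conditioned by L929 cells. Naïve cells received no ligand. Acute cells received 1 ligand of a Toll-like receptor for 4 h, and re-stimulated cells were exposed to that ligand for 24 h and then received it again for 4 h. The ligands were LPS (TLR4, 100 ng/ml), CpG DNA (TLR9, 100 µM by the labels, although the study's methods give a lower concentration), Pam3CSK4 (TLR2, 100 ng/ml) and Poly(I:C) (TLR3, 10 µg/ml). Each of the 9 conditions had 3 arrays, but 1 LPS re-stimulated and 1 acute Pam3CSK4 array had no deposited values, so those groups had n = 2. By the study's methods, marrow of 3 mice was combined for a culture and the replicates used separate pools. Another passage of the methods says that the replicates came from different mice. The p-values measure the spread between replicate cultures, which also lay on separate slides. If pools were used, they do not measure the spread between single mice.

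All values are deposited log2 values of 1-colour arrays. A probe was called when limma gave a Benjamini-Hochberg adjusted p under 0.05 over all probes tested and the difference was at least 1.5-fold, and all adjusted p-values below are of that kind. The 3 acute LPS arrays lay on 3 slides of their own and were scanned on 2 other days, so acute LPS and slide cannot be told apart in any comparison that uses them. The other conditions shared 3 slides, 1 for each replicate number, so a replicate block is there a slide block. On 24 of the 25 arrays used, 42.1 to 54.3% of probes were well above background, and on naïve replicate 3 the share was 74.6%. All 8 macrophage markers on the list were detected, with a summed level of 19.01 to 19.18 on the log2 scale with acute LPS and 19.08 to 19.78 in the other conditions. With acute LPS Csf1r fell by 0.92, Lyz2 by 0.97 and Cd68 by 0.89, while Cd14 rose by 0.71. Cd14 also rose by 1.62 with acute CpG. From acute to re-stimulated LPS Mrc1 fell by 4.66 and Itgam by 1.03, while Csf1r rose by 1.07 and Fcgr1 by 1.29. Mrc1 also fell by 4.47 from acute to re-stimulated Poly(I:C). Of the other cell types, 2 of 4 T cell genes were detected (11.18 to 12.44), 2 of 4 B cell genes (6.05 to 8.07), all 4 granulocyte genes (11.09 to 13.92), 2 of 3 fibroblast genes (6.15 to 9.47) and 1 of 3 erythroid genes (4.71 to 5.87). The granulocyte sum was 11.88 to 13.11 in naïve cells, 11.50 to 12.13 with acute LPS and 12.86 to 13.81 after LPS re-stimulation, with Ngp called lower by acute LPS and Ngp and Ly6g higher on re-stimulation. The fibroblast sum was 6.58 to 8.11 in naïve cells, 8.82 to 9.47 after LPS and 8.45 to 8.71 after Poly(I:C) re-stimulation. Dcn was called higher than naïve in both. Col1a2, the other detected fibroblast gene, differed from naïve by -0.9 after LPS and 0.1 after Poly(I:C) re-stimulation and was not called. Of the 3 dendritic cell genes, Zbtb46 and Flt3 were detected and Xcr1 was not well above background on any array. Their summed level was 4.53 to 5.75 in naïve cells, 9.60 to 10.69 with acute LPS, 6.74 to 8.40 with acute Poly(I:C), 7.49 to 7.91 with acute CpG, 5.26 to 6.54 with acute Pam3CSK4 and 5.58 to 7.48 after re-stimulation. The 2 genes did not move together. With acute LPS Zbtb46 rose by 6.23, while Flt3 differed by -0.25 and was not called. From acute to re-stimulated LPS Zbtb46 fell by 4.56 and Flt3 rose by 2. The part of any of these genes in the TRIM results was not tested. In these bulk RNA samples, fewer cells of a type and less RNA per cell cannot be told apart.

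Since several of the TRIM genes that moved are known interferon targets, the 300 bases around the RefSeq start sites (250 before and 50 after, build GRCm38.p6) were searched on either strand for the core of the interferon-stimulated response element, GAAA and GAAA with any 2 bases between them. Promoters were on hand for 35 of the 47 genes, 48 in all. The core was in 10 of these 48 (20.8%), belonging to 9 genes, and in 3.44% of all 32851 promoters. Among the 11 detected genes of chromosome 7 with antiviral relatives (Trim5, Trim6, Trim12a, Trim12c, Trim21, Trim30a, Trim30b, Trim30c, Trim30d, Trim34a and Trim68), 7 genes held it. These 11 are called the chromosome 7 genes below. Trim3 and Trim28 also lie on that chromosome but are not on the list. Their means were 10.34 and 11.68 in naïve cells and 10.44 and 11.72 with acute LPS. The NF-κB consensus was in 0 of the 48 and in 4.51% of all. A match is a description of these letters and not evidence of binding. The 5 windows in which the core lay wholly before the start site are shown, read on the gene's strand from 5′ to 3′ with the core in capitals, which appears here in its reverse complement, and they serve as the reference for the expression values that follow.
Trim5, chr7:104288116-104288185, - strand: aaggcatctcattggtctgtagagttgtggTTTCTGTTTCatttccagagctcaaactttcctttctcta
Trim12c, chr7:104353350-104353408, - strand: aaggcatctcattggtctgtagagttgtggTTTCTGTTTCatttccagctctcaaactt
Trim30a, chr7:104465194-104465259, - strand: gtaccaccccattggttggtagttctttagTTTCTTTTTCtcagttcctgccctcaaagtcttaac
Trim30d, chr7:104507851-104507920, - strand: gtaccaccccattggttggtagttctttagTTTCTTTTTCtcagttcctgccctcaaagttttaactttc
Trim26, chr17:36836956-36837031, + strand: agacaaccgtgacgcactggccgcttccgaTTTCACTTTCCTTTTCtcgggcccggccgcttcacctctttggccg
The windows of Trim5 and Trim12c share their core and most of the bases around it, as do those of Trim30a and Trim30d. In Trim26 the capitals hold 2 cores that overlap. In Trim12a and Trim34a the core began at position 10 after the start and in Trim21 at positions 13 and 19. Trim2, which is not among the chromosome 7 genes, held a core at position 28 of 1 of its windows. Its mean was 8.82 in naïve cells and 8.84 with acute LPS. No core was found in the windows of Trim6, Trim30b, Trim30c or Trim68.

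Acute LPS and Poly(I:C) moved a large part of the family, while fewer probes were called with CpG and none with Pam3CSK4 in the main fit. Most of the antiviral genes of chromosome 7 were higher with LPS and Poly(I:C). Trim16, Trim47 and Trim65 were lower with both, and Trim13 and Trim36 were higher with LPS and CpG. With LPS, 32 of 67 TRIM probes tested were called (47.8%), 17 higher and 15 lower, against 26.5% of all 29933 probes (13.2% higher and 13.2% lower). With Poly(I:C) 18 of 65 were called (27.7%), 12 higher and 6 lower, against 6.03% of all probes (3.8% and 2.23%), and the replicate block called 13, with Trim34a, Trim65, both Trim16 probes and a probe each of Trim12a and Trim45 not among them. With CpG 8 of 63 were called, 3 higher and 5 lower, against 5.72% of all (3.09% and 2.63%), and the replicate block called 2, of which Trim47 was 1 of the 8. With Pam3CSK4 0 of 63 were called by limma, against 0% of all probes. There 19 TRIM probes had an unadjusted p under 0.05, as had 3458 of 27843 probes, and a limma fit over all 9 groups called 11. These comparisons share the naïve arrays, so each is described by its own values. The naïve group held the array with the high share above background, replicate 3, without which the counts were 35 for LPS, 25 for Poly(I:C) and 12 for CpG. The Poly(I:C) count was 1 without Poly(I:C) replicate 1 or 2, 2 without naïve replicate 1 and 4 without naïve replicate 2. The CpG count was 4 without CpG replicate 3 and 0 without CpG replicate 1 or 2 or naïve replicate 1 or 2. The LPS count stayed at 23 or more.

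**Figure D1:**
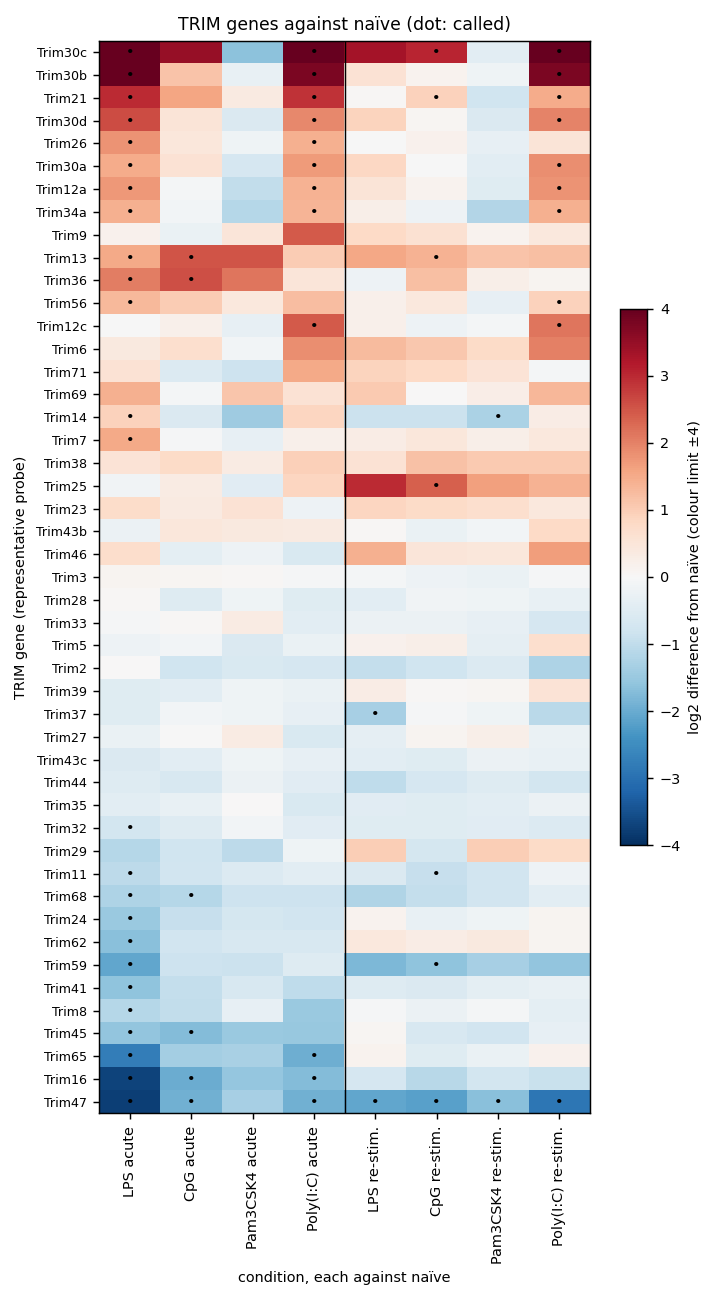
Log2 difference of each condition's mean from the naïve mean (colour, limits ±4) for the representative probe of each of the 47 detected TRIM genes (rows), acute conditions left of the line and re-stimulated right of it. Dots mark called differences; Trim30c with acute LPS (7.04), acute Poly(I:C) (6.24) and re-stimulated Poly(I:C) (6.25) and Trim30b with acute LPS (4.39) lie beyond the colour limit, and Trim47 at the bottom is blue in every column.

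With Poly(I:C) 8 of the 9 genes called higher were antiviral genes of chromosome 7. With LPS 14 genes were called higher on any probe. Of the chromosome 7 genes, these included 7 by their representative probe and Trim12c by its second probe. Their probes lay, on mm9, from chr7:109706478-109706537 (Trim21) and chr7:109826347-109826406 (Trim68) to a run from chr7:111382909-111382968 (Trim6) to chr7:111620805-111620864 (Trim30d). With Poly(I:C) 8 of the 11 chromosome 7 genes were called higher and 0 lower, with a median log2 difference of 1.86 against -0.10 over all probes tested. With LPS 7 were higher and 1 lower by their representative probes, with a median of 1.49 against -0.01. With CpG 0 of 10 were higher and 1 was lower, and with Pam3CSK4 0 of 10 were called, with medians of 0.37 and -0.63. These genes include near-identical copies, and whether their probes also bind one another's transcripts was not tested.

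Trim30c had the largest change in the family. Its deposited log2 values were 4.90, 6.00 and 3.65 in naïve cells, 12.11, 11.43 and 12.13 with LPS, and 11.56, 11.59 and 10.13 with Poly(I:C). The stimulated arrays lay above all naïve arrays by more than 4 log2 units. The difference was 7.04 ± 0.59 (SE) with LPS, 132-fold (adjusted p = 0.0011), and 6.24 ± 0.69 with Poly(I:C), 75.8-fold (adjusted p = 0.0108). With Pam3CSK4 Trim30c read 3.58 and 2.81 and was not well above background on either array.

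Its neighbour Trim30b was not well above background on any naïve array, at 3.36, 4.51 and 2.09. It read 7.55, 7.49 and 8.08 with LPS and 7.25, 7.33 and 6.69 with Poly(I:C). Trim30b was thus at least 20.9-fold higher with LPS (adjusted p = 0.0043) and at least 13.6-fold higher with Poly(I:C) (adjusted p = 0.0272), the bounds taking the lowest signal well above background on each naïve array where the probe itself was lower. The relatives that were already well expressed rose less. Trim30d rose by 2.60 ± 0.28 with LPS and 1.91 ± 0.29 with Poly(I:C), and Trim30a, a known brake on Toll-like receptor signalling through the TAB proteins, by 1.49 ± 0.24 and 1.70 ± 0.28.

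Trim21, the cytosolic antibody receptor that targets antibody-coated virus, was 10.75, 11.16 and 11.12 in naïve cells. It reached 14.07, 14.21 and 13.66 with LPS and 13.86, 13.93 and 13.90 with Poly(I:C), well clear of the naïve arrays. The rise was 2.97 ± 0.23 with LPS, 7.83-fold (adjusted p = 0.000889), and 2.88 ± 0.18 with Poly(I:C), 7.38-fold (adjusted p = 0.00211). Of the 18 Poly(I:C) calls, that of Trim21 was the 1 that held under all 16 other settings.

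Trim12a and Trim34a, mouse relatives of the primate restriction factor TRIM5α and of human TRIM34, rose together. Trim12a rose by 1.74 ± 0.23 with LPS and 1.38 ± 0.23 with Poly(I:C), and Trim34a by 1.43 ± 0.28 and 1.36 ± 0.27. The second Trim34a probe missed the threshold, at 1.79 ± 0.68 (adjusted p = 0.1) and 1.49 ± 0.65 (adjusted p = 0.256). Trim5 did not pass the test with either ligand, at 6.83, 6.97 and 6.27 in naïve cells, 6.83, 6.53 and 6.06 with LPS and 5.82, 6.33 and 7.12 with Poly(I:C), although its window holds the same core as that of Trim12c.

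The 3 probes of Trim12c read the ligands differently. All 3 rose with Poly(I:C), by 2.45 ± 0.38, 1.65 ± 0.32 and 1.94 ± 0.33. With LPS the second rose by 2.10 ± 0.45, while the first differed by -0.02 ± 0.32 (adjusted p = 0.972) and the third by 0.83 ± 0.31 (adjusted p = 0.0984). Trim6, which builds unanchored ubiquitin chains in interferon signalling, was 5.40, 5.67 and 3.91 in naïve cells and 7.05, 6.93 and 6.59 with Poly(I:C), a difference of 1.86 ± 0.48 that did not pass (adjusted p = 0.0847). Trim68 was the exception in direction and fell by 1.23 ± 0.20 with LPS (adjusted p = 0.00723) and by 1.13 ± 0.20 with CpG (adjusted p = 0.033).

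**Figure D2:**
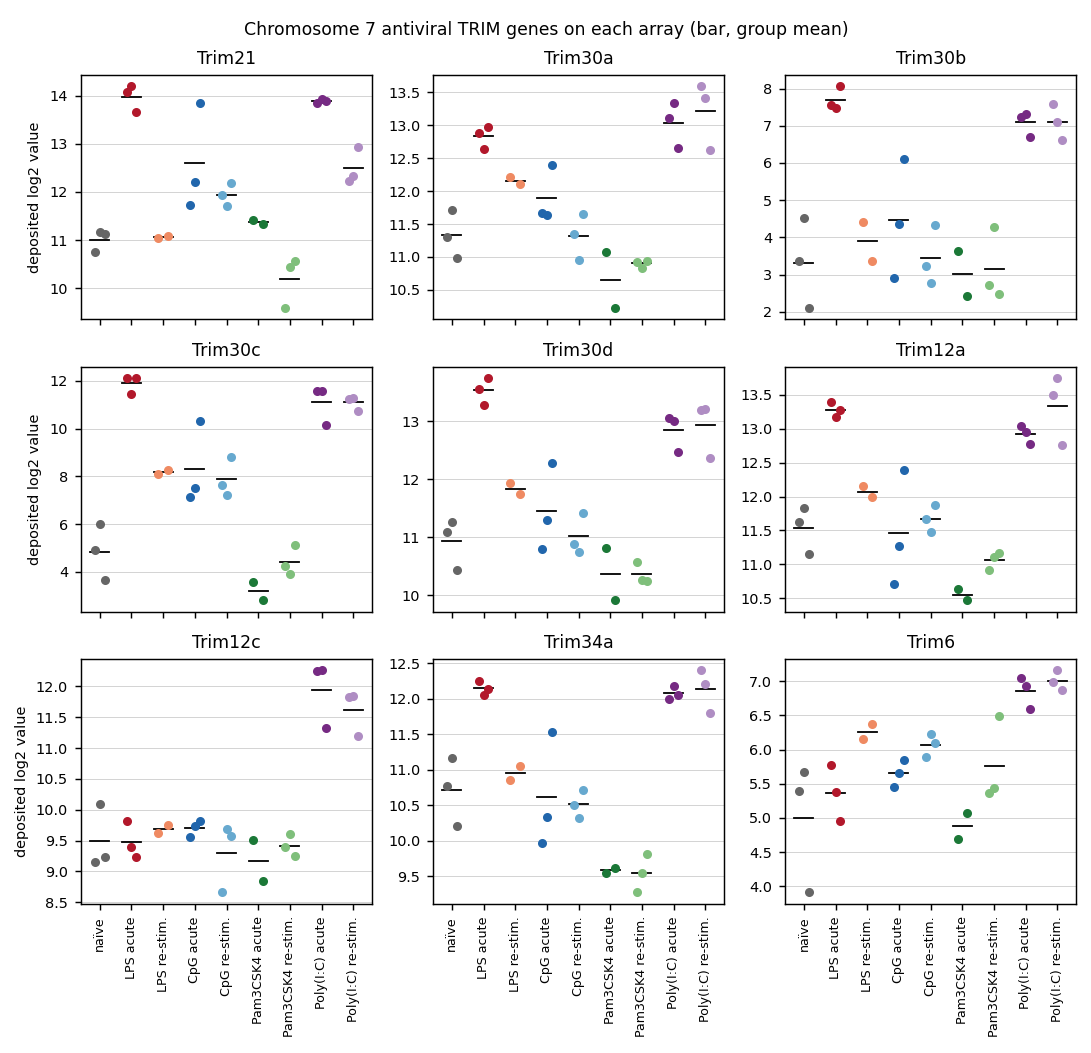
Deposited log2 value (y axis) on each of the 25 arrays for 9 antiviral TRIM genes of chromosome 7, points being arrays grouped by condition and bars group means. Acute LPS and Poly(I:C) stand high for most genes, the Trim12c probe shown is high in the Poly(I:C) groups, and 1 acute CpG array (replicate 3) stands above the other two for Trim21 and Trim30c.

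The 3 acute CpG arrays were not alike in these genes. Trim30c read 7.12, 7.52 and 10.32, Trim21 11.73, 12.21 and 13.85, and Trim26 11.87, 11.57 and 13.17, each time highest on replicate 3. The mean level of 12 interferon response genes (Mx1, Ifit1, Rsad2 and others) moved with them, at 12.49, 12.57 and 14.79 on the same arrays, and at 15.09 to 15.55 with Poly(I:C). The CpG differences from naïve were 3.48 ± 1.00 for Trim30c (adjusted p = 0.103) and 1.58 ± 0.55 for Trim21 (adjusted p = 0.159).

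Among the 6 regulators of nucleic acid sensing (Trim14, Trim25, Trim26, Trim38, Trim56 and Trim65), 3 rose and 1 fell with LPS, where 13.2% of all probes went each way, and 1 rose and 1 fell with Poly(I:C), where 3.8% and 2.23% did. Trim26, a nuclear regulator of IRF3, was 11.75, 11.84 and 11.66 in naïve cells, 13.62, 13.74 and 13.26 with LPS and 13.31, 13.16 and 13.06 with Poly(I:C). The rise was 1.79 ± 0.20 (adjusted p = 0.00243) and 1.43 ± 0.16 (adjusted p = 0.0111). Trim56, linked to the STING and TLR3 pathways, rose by 1.29 ± 0.19 with LPS (adjusted p = 0.00563) and differed by 1.22 ± 0.25 with Poly(I:C) (adjusted p = 0.0508). Its second probe did not pass with LPS, at 0.43 ± 0.19 (adjusted p = 0.144). Trim14, an adaptor at mitochondria, rose by 0.93 ± 0.26 with LPS (adjusted p = 0.0451). Its second probe missed the threshold, at 0.96 ± 0.33 (adjusted p = 0.0797), and the third, not well above background in naïve cells, was at least 3.29-fold higher (adjusted p = 0.0246).

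Trim65, the ligase of the RNA sensor MDA5, went the other way. It was 6.47, 6.80 and 5.73 in naïve cells, 3.84, 3.72 and 3.13 with LPS and 4.18, 3.96 and 4.96 with Poly(I:C). With LPS it was not well above background on any array and was at least 6.83-fold lower (adjusted p = 0.0033), and with Poly(I:C), where 1 of 3 arrays was well above background, it fell by 1.97 ± 0.39 (adjusted p = 0.043). Its second, dim probe did not pass, at -0.63 ± 0.26 with LPS and 0.30 ± 0.53 with Poly(I:C), the latter in the other direction. Trim38 was dim throughout, at 2.54 to 4.05 in naïve cells, and was not called with any acute ligand.

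Trim25, the ligase of the sensor RIG-I, was read by 2 bright probes that disagreed. The first, of an Ensembl transcript, spans chr11:88874956-88881181 on mm9, and the second, of the RefSeq transcript, lies at chr11:88881521-88881580. With acute LPS they differed from naïve by -0.14 ± 0.45 and 0.58 ± 0.21, and neither was called. Their separation on re-stimulation is described with the other re-stimulated values.

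In all 12 genes fell with acute LPS, and 4 of these genes, Trim16, Trim45, Trim47 and Trim68, were also called lower with CpG. Trim47, a RING ligase with a PRYSPRY domain, was 12.88, 13.19 and 12.28 in naïve cells, 8.94, 9.09 and 9.05 with LPS, 11.24, 11.12 and 10.18 with CpG, 11.43 and 11.49 with Pam3CSK4, and 10.95, 10.92 and 10.74 with Poly(I:C). Every stimulated array lay below every naïve array. It fell by 3.76 ± 0.27 with LPS (13.5-fold, adjusted p = 0.00072), by 1.94 ± 0.38 with CpG (adjusted p = 0.0434) and by 1.91 ± 0.27 with Poly(I:C) (adjusted p = 0.0186). With Pam3CSK4 the difference was -1.33 ± 0.32 (adjusted p = 0.288). The second probe missed the threshold with CpG, at -1.98 ± 0.43 (adjusted p = 0.0569).

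Trim16, which takes part in the autophagic handling of damaged membranes, was 7.43, 7.42 and 6.48 in naïve cells and 3.68, 2.90 and 3.61 with LPS, where 1 of 3 arrays was well above background. Its second probe was above background on none of the LPS arrays and was at least 14.8-fold lower (adjusted p = 0.00115). The first fell by 3.71 ± 0.36 with LPS (adjusted p = 0.00154), 1.99 ± 0.36 with CpG (adjusted p = 0.035) and 1.72 ± 0.35 with Poly(I:C) (adjusted p = 0.0469). Trim45, a member with a filamin domain, fell by 1.59 ± 0.27 with LPS and by 1.72 ± 0.29 with CpG (adjusted p = 0.0314), where its second probe was at least 2.36-fold lower and did not pass (adjusted p = 0.142). Its first probe missed the threshold with Poly(I:C), at -1.51 ± 0.33 (adjusted p = 0.0582), while its second, not well above background on any Poly(I:C) array, was at least 4.07-fold lower (adjusted p = 0.0443).

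The other falls were called with LPS among the acute ligands. Trim59 fell by 2.08 ± 0.49, Trim62 by 1.66 ± 0.24, Trim41 by 1.61 ± 0.21, Trim24 by 1.49 ± 0.26, Trim8 by 1.15 ± 0.20, Trim11 by 1.04 ± 0.18 and Trim32 by 0.74 ± 0.21. The second probes of Trim59 and Trim24 did not pass, at -1.65 ± 0.49 (adjusted p = 0.052) and -0.88 ± 0.29 (adjusted p = 0.0647). Trim24 was the called member of the TIF1 group, whose other detected genes stayed within their spread, with LPS differences of 0.04 ± 0.21 for Trim28 and -0.04 ± 0.38 for Trim33. Median scaling, which moved the median of all probes from -0.07 to 0.43 with CpG and from -0.10 to 0.31 with Poly(I:C), kept the direction of each acute fall but left 0 called lower with CpG or Poly(I:C) and 6 with LPS.

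**Figure D3:**
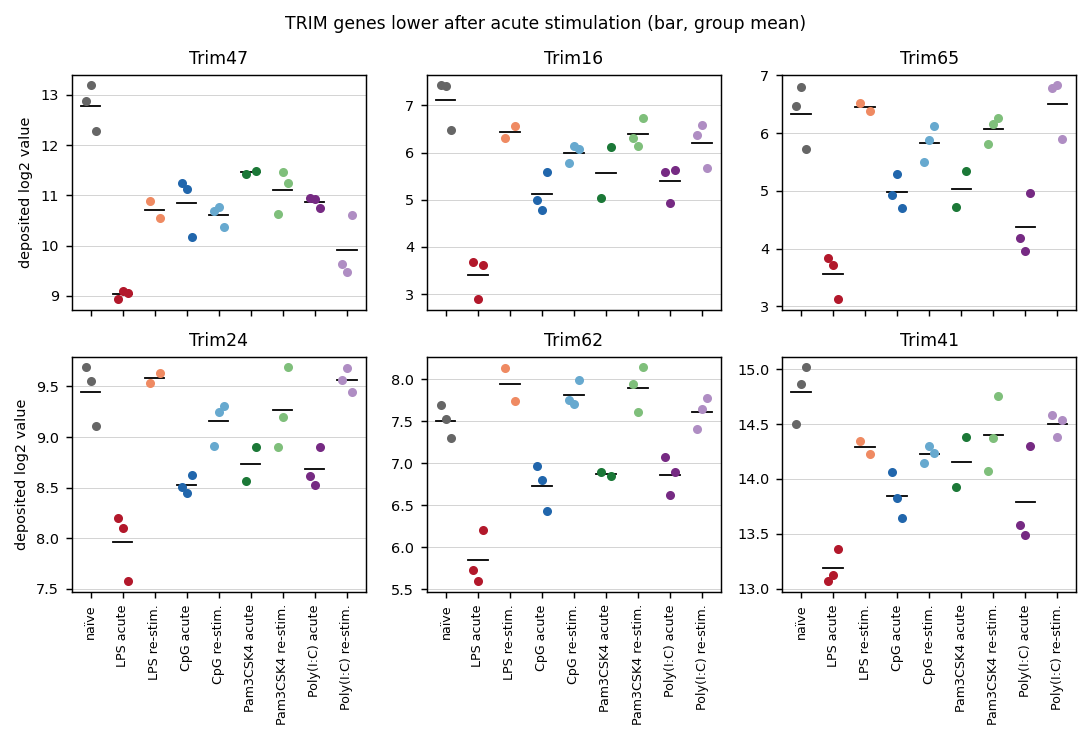
Deposited log2 value (y axis) on each array for Trim47, Trim16, Trim65, Trim24, Trim62 and Trim41, points being arrays grouped by condition and bars group means. The acute LPS arrays are the lowest for each gene, and Trim47 stays below the naïve arrays after re-stimulation with every ligand.

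Trim13 and Trim36 showed a different order of ligands. Trim13, an endoplasmic reticulum ligase with a transmembrane segment, was 8.93, 8.84 and 9.76 in naïve cells, 11.64, 12.01 and 11.38 with CpG, 12.29 and 11.11 with Pam3CSK4, 10.75, 10.77 and 10.60 with LPS, and 10.45, 10.18 and 9.98 with Poly(I:C). It rose by 2.50 ± 0.32 with CpG (5.65-fold, adjusted p = 0.0177) and by 1.53 ± 0.28 with LPS (adjusted p = 0.0118). With Pam3CSK4 the difference was 2.52 ± 0.48 (adjusted p = 0.288) and with Poly(I:C) 1.02 ± 0.30 (adjusted p = 0.113). The second probe gave 2.73, 1.54, 2.75 and 1.10 in that order of ligands.

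Trim36, a ligase with a COS domain that binds microtubules, was 6.78, 6.50 and 8.08 in naïve cells, 9.69, 9.99 and 9.43 with CpG, and 7.62, 7.79 and 7.42 with Poly(I:C). It rose by 2.59 ± 0.44 with CpG (adjusted p = 0.0318) and 2.04 ± 0.48 with LPS (adjusted p = 0.0258). Set directly against each other, Poly(I:C) was lower than CpG by 2.10 ± 0.21 (4.28-fold, adjusted p = 0.0439) and lower than Pam3CSK4 by 1.65 ± 0.25 (adjusted p = 0.0485). Trim7, which was 5.75, 5.53 and 4.28 in naïve cells, rose with LPS by 1.52 ± 0.40 (adjusted p = 0.0347), although its second probe gave -0.02 ± 0.53 (adjusted p = 0.978).

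By domain class, 28 PRYSPRY genes were detected of 36 on the array. Of these 10 rose and 7 fell with LPS, and 9 rose and 3 fell of 27 tested with Poly(I:C), beside the 13.2% each way and the 3.8% and 2.23% of all probes. The 4 genes with NHL repeats (Trim2, Trim3, Trim32 and Trim71) had 0 higher and 1 lower with LPS and 0 called with Poly(I:C) by limma. Relatives that lack a Trim symbol moved too, with Pml, Mid1 and Mefv all higher with LPS (1.96, 2.50 and 2.90) and Pml and Mid1 with Poly(I:C) (2.00 and 2.88). Of 22 partners in ubiquitin and RNA sensing pathways, 11 rose and 1 fell with LPS, and 8 rose with Poly(I:C). The RNA sensor Ifih1, which encodes MDA5, rose by 4.65 with LPS and 4.19 with Poly(I:C), and its adaptor Mavs fell by 1.03 with LPS.

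The ligands were then compared directly. Between acute Poly(I:C) and acute Pam3CSK4, 18 of 61 TRIM probes were called (29.5%), 17 higher with Poly(I:C) and 1 lower, against 2.42% of all probes (2.13% and 0.293%). Of the 11 chromosome 7 genes 9 were higher, with a median of 2.47 against -0.10. Trim30c was at least 239-fold higher (adjusted p = 0.0159), Trim30b at least 16.3-fold higher (adjusted p = 0.0212) and Trim6 3.94-fold higher (adjusted p = 0.0289). Trim14 was higher by 2.28 ± 0.25, Trim25 on its second probe by 1.98 ± 0.17 and Trim71, not well above background with Pam3CSK4, at least 5.04-fold. The acute Pam3CSK4 group had 2 arrays: the count was 2 without replicate 1, 0 without replicate 3 and 0 when the array left out by the authors was added. It was also 0 without Poly(I:C) replicate 1 or 2, and 0 with the replicate block.

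Between acute Poly(I:C) and acute CpG, 1 of 60 TRIM probes was called (Trim36), against 0.173% of all (0.0867% in each direction), and the replicate block called 0. Trim30c differed by 2.77 ± 0.90 (adjusted p = 0.254). Without CpG replicate 3, the array on which the interferon response genes stood highest, the count was 18, with 15 higher for Poly(I:C) and 3 lower. Between acute CpG and acute Pam3CSK4 limma called 0 of 57, against 0% of all, with 5 at an unadjusted p under 0.05 and 1 called in the fit over 9 groups.

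**Figure D4:**
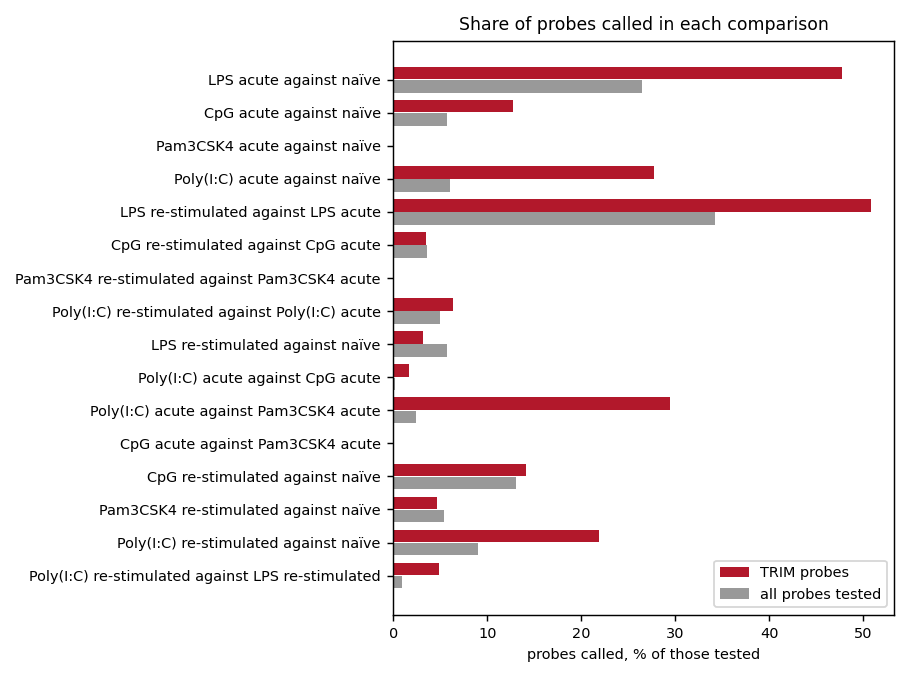
Percentage of TRIM probes (red) and of all probes tested (grey) called in each comparison of 2 conditions, bars starting at 0. The TRIM bar stands at 47.8% against 26.5% for acute LPS and at 27.7% against 6.03% for acute Poly(I:C), while the bars are close for most re-stimulated comparisons and absent for Pam3CSK4 acute against naïve.

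After re-stimulation the antiviral TRIM genes of LPS treated cells (n = 2) were not called different from naïve, although several read above it. Most of those of Poly(I:C) treated cells were still called higher than naïve. Against acute LPS, 33 of 65 TRIM probes were called (50.8%), 16 higher and 17 lower, against 34.2% of all probes (17.2% and 17%), slide and acute LPS again not being separable, and 13 were called when the left-out arrays were added. Of the 11 chromosome 7 genes 7 were lower. The same question can be put on shared slides: LPS re-stimulated against naïve gave 2 of 64 TRIM probes called, 0 higher and 2 lower, against 5.66% of all (3.27% and 2.39%). None of the 10 chromosome 7 genes tested by limma was called there, with a median of 0.38 against 0.00. By representative probe, both LPS re-stimulated arrays lay above all naïve arrays for Trim30c, Trim30a, Trim30d, Trim12a and Trim6. Trim30a read 12.21 and 12.10 against 11.30, 11.72 and 10.99 in naïve cells, and Trim30d 11.93 and 11.74 against 11.09, 11.27 and 10.44. Trim5, Trim12c, Trim21, Trim30b and Trim34a lay within the naïve range, and Trim68 lay below it. Of 12 interferon response genes, 7 were called higher than naïve in those cells, among them Ifit1, by 2.70.

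Trim21 showed the return most closely, at 11.05 and 11.09 after LPS re-stimulation, a difference from naïve of 0.06 ± 0.21 (adjusted p = 0.882) and a fall from acute of 2.91 ± 0.23 (7.51-fold, adjusted p = 0.000744). Trim30b, at 4.42 and 3.36, was again not well above background and was at least 14.1-fold lower than with acute LPS (adjusted p = 0.00124). Trim30c fell 13.0-fold from acute LPS (adjusted p = 0.000644) but kept 8.11 and 8.27, both above the naïve arrays, a difference of 3.34 ± 0.70 that did not pass (adjusted p = 0.0638). Trim26 fell by 1.80 ± 0.23 to 11.68 and 11.81, within the naïve range, and Trim14 fell by 1.80 ± 0.26.

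Members that had fallen with acute LPS were mostly higher again. The fall and this rise are not independent, as both were measured against the same 3 acute LPS arrays, on slides of their own. Low readings on those arrays would give both, and the source of the readings was not tested. The same holds for genes that rose and then fell. Against acute LPS, where its first probe was well above background on 1 of 3 arrays, Trim16 rose by 3.03 ± 0.29, Trim62 by 2.09 ± 0.27, Trim47 by 1.69 ± 0.21, Trim45 by 1.67 ± 0.31, Trim24 by 1.62 ± 0.25, Trim41 by 1.11 ± 0.20 and Trim8 by 1.11 ± 0.20. Trim65 rose at least 7.43-fold, to 6.53 and 6.39. Trim47 was nevertheless still below naïve, at 10.88 and 10.55, by 2.07 ± 0.33 (4.20-fold, adjusted p = 0.0393), the second probe missing the threshold at -2.07 ± 0.38 (adjusted p = 0.051). Trim37, a ligase of peroxisomes and centrosomes, was 6.98, 7.12 and 6.73 in naïve cells and 5.85 and 5.41 after LPS re-stimulation, and was lower by 1.32 ± 0.24 (adjusted p = 0.0497). Without naïve replicate 3 the count of called probes in this comparison was 14, as it was with the replicate block, and it was 0 without any other single array.

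With Poly(I:C), 4 of 63 TRIM probes differed between re-stimulated and acute cells, 3 higher and 1 lower, against 4.93% of all (2.31% and 2.62%), and the replicate block called 2. Against naïve, 14 of 64 were called (21.9%), 12 higher and 2 lower, against 9.03% of all (4.79% and 4.23%), and 8 of the 11 chromosome 7 genes were higher with a median of 1.87 against -0.04. Trim30c read 11.25, 11.30 and 10.75, a difference from acute of 0.01 ± 0.43 and a rise over naïve of 6.25 ± 0.59 (adjusted p = 0.00735). Trim12a read 13.49, 13.75 and 12.76, Trim30a 13.60, 13.41 and 12.62, and Trim34a 12.41, 12.21 and 11.80, and none of these was called against acute. Trim21 was the exception: it fell from the acute level by 1.39 ± 0.23 (adjusted p = 0.0341), to 12.23, 12.33 and 12.94, and was still 2.81-fold above naïve (adjusted p = 0.0255). The count against naïve was 1 without Poly(I:C) re-stimulated replicate 1 or 2 or naïve replicate 1, and 4 without naïve replicate 2.

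The 3 probes that rose from acute to re-stimulated Poly(I:C) belonged to Trim24, by 0.88 ± 0.18 and 1.12 ± 0.21, and Trim65, by 2.14 ± 0.37 (adjusted p = 0.0369), whose second probe did not pass at 1.01 ± 0.54 (adjusted p = 0.291). With the replicate block these 3 lost their calls and Trim21 kept its own. Trim65 then read 6.79, 6.83 and 5.89, overlapping the naïve values. Trim47 stayed low, at 9.63, 9.47 and 10.61, and was 7.36-fold below naïve (adjusted p = 0.0153).

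Set directly against each other on shared slides, Poly(I:C) and LPS re-stimulated cells differed in 3 of 62 TRIM probes, 2 higher with Poly(I:C) and 1 lower, against 0.957% of all (0.409% and 0.549%). Trim30c was higher by 2.91 ± 0.24 (7.52-fold, adjusted p = 0.0267) and Trim30b at least 9.26-fold higher (adjusted p = 0.0473), with Trim25 on its first probe lower by 1.59 ± 0.19 (adjusted p = 0.0394). Trim21 differed by 1.43 ± 0.27 and did not pass (adjusted p = 0.104). With the replicate number as a block 13 probes were called, and without Poly(I:C) re-stimulated replicate 3 the count was 15. It was 0 when any other single array was left out and 0 when the authors' left-out arrays were added.

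Few TRIM probes were called on CpG and Pam3CSK4 re-stimulation. Against acute CpG, 2 of 57 TRIM probes were called, against 3.56% of all (1.85% and 1.71%): the second probe of Trim13 fell by 1.24 ± 0.23 (adjusted p = 0.0434) and Trim62 rose by 1.08 ± 0.20 (adjusted p = 0.0454). The replicate block called 4, with Trim62 not among them. Against acute Pam3CSK4 limma called 0 of 58, against 0% of all, with 10 at an unadjusted p under 0.05 and 3 in the fit over 9 groups. Against naïve, CpG re-stimulated cells had 9 of 64 called, 5 higher and 4 lower, against 13.1% of all (6.65% and 6.45%), and Pam3CSK4 re-stimulated cells had 3 of 64, all lower, against 5.36% of all (2.74%, with 2.61% higher). The replicate block called 5 and 0, and without naïve replicate 3 the counts were 17 and 12, while leaving out any other array gave 1 or 2 for CpG and 0 or 1 for Pam3CSK4. Trim13 was still 2.63-fold above naïve with CpG (adjusted p = 0.0333), and Trim21 1.91-fold and Trim30c 8.18-fold above (adjusted p = 0.0387 and 0.0393), calls that all 3 genes lost with the replicate block. The lower calls with CpG were both probes of Trim47 and a probe each of Trim11 and Trim59. The first Trim47 probe kept its call in all but 1 of 16 other settings, median scaling. With Pam3CSK4 the lower probes were the first probes of Trim47 (-1.67 ± 0.33) and Trim14 (-1.27 ± 0.24), whose second probes did not pass (adjusted p = 0.0552 and 0.158), and the second probe of Trim25 (-1.64 ± 0.31).

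The re-stimulation change itself was also compared between ligands, in 1 fit over all 9 groups. Poly(I:C) against CpG and against Pam3CSK4 gave 0 of 64 TRIM probes called each, against 0.0396% and 0.141% of all probes. In each of these limma tests 8 TRIM probes had an unadjusted p under 0.05, and no alternative setting that kept all arrays called any. Trim65, which rose on Poly(I:C) re-stimulation, differed in that change by 1.28 ± 0.46 from CpG (adjusted p = 0.308) and by 1.09 ± 0.49 from Pam3CSK4 (adjusted p = 0.378), so a difference between ligands was not shown.

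The first Trim25 probe separated from the second on re-stimulation with LPS, CpG and Pam3CSK4. It read 14.68, 15.28 and 13.48 in naïve cells, 14.28, 14.31 and 14.42 with acute LPS, and 17.58 and 17.35 after LPS re-stimulation, when it rose by 3.13 ± 0.20 from acute (8.73-fold, adjusted p = 0.000418). It read 16.88, 17.48 and 16.22 after CpG re-stimulation, a rise over naïve of 2.38 ± 0.54 (adjusted p = 0.0393), and 17.33, 16.55 and 14.44 after Pam3CSK4 re-stimulation (adjusted p = 0.278 against naïve). The second probe read 15.14 and 15.51 after LPS re-stimulation, 0.19 ± 0.24 from naïve, and 14.29, 14.42 and 14.70 after CpG re-stimulation. The probes of this gene did not give the same order of conditions, and the level of Trim25 is uncertain.

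**Figure D5:**
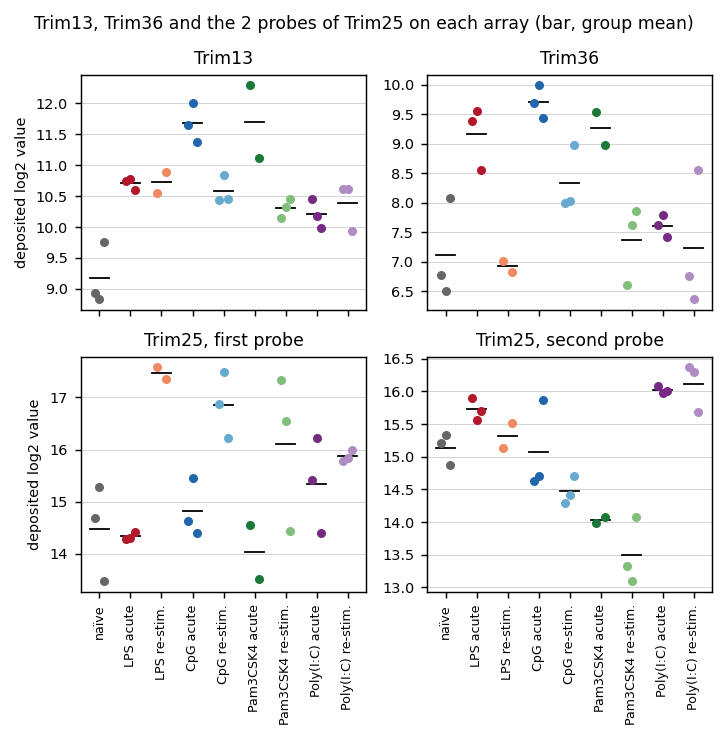
Deposited log2 value (y axis) on each array for Trim13, Trim36 and the 2 probes of Trim25, points being arrays grouped by condition and bars group means. The means of Trim13 and Trim36 are highest with acute CpG or Pam3CSK4, and the first Trim25 probe reaches 17.58 after LPS re-stimulation while the second stays at 15.14 and 15.51.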

How the data were processed

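RNA of 27 BMDM samples was hybridised to 1-colour Agilent arrays. The authors deposited each array's scanner intensity (Agilent Feature Extraction 10.7.3.1, probe positions on mm9) and log2 values of 25 arrays in a matrix which, per the study's methods, went through background subtraction, RMA correction and quantile normalization. Rebuilt from the intensities, the log2 values differed from the deposited ones by a median of 0.0355 (largest 1.08), and all 25 columns correlated best with their own array. The log2 table was the main source. The scanner's detection calls served the filter (2 or more arrays of either group) and the intensities the alternatives.

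Each pair of conditions was fitted with limma 3.58.1 (lmFit, eBayes; R 4.3.3) without a block, with adjustment over all non-control probes tested, and the re-stimulation changes in 1 fit over 9 groups. The fit was tested on simulated data. Named genes were those called in a naïve, acute or re-stimulated comparison (at most 10 each way), with the chromosome 7, TIF1 and sensing lists. Members and lists were chosen with earlier results of these data known, and 4 comparisons (CpG, Pam3CSK4 and Poly(I:C) re-stimulated against naïve, and the direct comparison of re-stimulated Poly(I:C) and LPS) were added after the data were seen.

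Of the 100 TRIM probes 91 had an accession in RefSeq, all under the same symbol. In the acute LPS files, made with an earlier design file, 12 of the 68 detected probes carried another name. No spot of a detected TRIM probe was flagged or saturated on the 25 arrays. Same-numbered arrays deviated together in the comparisons of acute CpG with naïve (correlations 0.26 to 0.32) and acute Poly(I:C) with naïve (0.35 to 0.41), each number being a slide shared by those groups, in acute Poly(I:C) with CpG (0.34 to 0.50), and in CpG (0.26 to 0.40) and Poly(I:C) (0.27 to 0.44) re-stimulated against acute. They did not with acute LPS (0.01 to 0.04). Alternatives changed the source of the values, the scaling, the background correction, the filter, the arrays, the model and the block. The number of arrays limits the precision. The search for 1 further promoter motif is not reported here.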

Additional observations from a re-analysis of the deposited data

Results flagged for a closer look

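Differences between ligands that passed a direct test are given here as values, with no explanation. Acute Poly(I:C) exceeded acute Pam3CSK4 on the log2 scale by 7.90 for Trim30c, 4.07 for Trim30b, 2.37 and 2.24 for the probes of Trim12a, 2.77 and 2.41 for those of Trim12c, 2.52 for Trim21, 2.39 for Trim30a, 2.47 for Trim30d, 2.50 and 2.14 for Trim34a and 1.98 for Trim6. It exceeded it by 2.28 and 1.52 for the probes of Trim14, 1.98 for the second probe of Trim25, 1.61 for Trim26 and 2.33 for Trim71, and for Trim36 the difference was -1.65. Trim36 also differed between acute Poly(I:C) and acute CpG, by -2.10. Between re-stimulated Poly(I:C) and re-stimulated LPS the values were 2.91 for Trim30c, 3.21 for Trim30b and -1.59 for the first probe of Trim25. Trim30c, Trim30b and Trim71 were not well above background with acute Pam3CSK4, nor Trim30b after LPS re-stimulation, so these measured differences stand for bounds: at least 239-fold, 16.3-fold and 5.04-fold in the first comparison and 9.26-fold in the last.

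The arrays without deposited values had signal in nearly every probe, TRIM or not. On LPS re-stimulated replicate 3, 96% of the 100 TRIM probes were well above background, against 92.3% of all probes. On acute Pam3CSK4 replicate 2 the shares were 100% and 99.9%. The naïve arrays had 57 to 83% of TRIM probes and 45.8 to 74.6% of all probes.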

How the results depend on the processing

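Counts are TRIM probes called, and comparisons are named by their conditions. Over 2280 recomputed values of called probes, 1635 kept their call, 643 lost it with the same direction and 2 reversed: Trim11, CpG re-stimulated against naïve, was 0.22 with median scaling, and Trim39, LPS re-stimulated against acute, was -0.54 with all 27 arrays. The cause was not tested. With 2 or 3 arrays a group, leaving any out also leaves fewer to estimate the spread, and a lone array is then assumed to vary like the other group.

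The replicate block gave 2 for CpG acute against naïve, 4 for CpG re-stimulated against acute, 5 for CpG re-stimulated against naïve, 14 for LPS re-stimulated against naïve, 0 for Pam3CSK4 re-stimulated against naïve, 0 for acute Poly(I:C) against CpG, 0 for acute Poly(I:C) against Pam3CSK4, 13 for re-stimulated Poly(I:C) against LPS and 2 for Poly(I:C) re-stimulated against acute. In the other comparisons it moved no count by over 1.5 times. 1 fit over all 9 groups gave 20 for CpG acute, 11 for Pam3CSK4 acute and 31 for Poly(I:C) acute against naïve, 13 (LPS), 11 (Pam3CSK4) and 24 (Poly(I:C)) re-stimulated against naïve, 5 (CpG), 3 (Pam3CSK4) and 16 (Poly(I:C)) re-stimulated against acute, 15 for acute Poly(I:C) against CpG and 1 for acute CpG against Pam3CSK4. With the slide as a random block these became 21, 15 and 34, then 15, 15 and 28, then 10, 7 and 21, then 20 and 1, with 17 for CpG re-stimulated against naïve and 6 for re-stimulated Poly(I:C) against LPS.

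Median scaling gave 16 (10 higher, 6 lower) for LPS acute, 5 (5 higher, 0 lower) for CpG acute and 8 (8 higher, 0 lower) for Poly(I:C) acute against naïve, 1 for Pam3CSK4 re-stimulated against naïve, 4 and 1 for acute Poly(I:C) against CpG and acute CpG against Pam3CSK4, and 5 for re-stimulated Poly(I:C) against LPS. It moved the median of all probes by 0.10 to 0.81 on the log2 scale in comparisons with naïve. The processed signal gave 1 for CpG re-stimulated against acute, 16 (CpG) and 11 (LPS) re-stimulated against naïve and 0 for acute Poly(I:C) against CpG. Normexp gave 14 for CpG acute against naïve, 4 for CpG re-stimulated against acute, and 14 (CpG), 12 (LPS) and 7 (Pam3CSK4) re-stimulated against naïve. All 27 arrays gave 13 for LPS re-stimulated against acute and 0 each for LPS re-stimulated against naïve, acute Poly(I:C) against Pam3CSK4 and re-stimulated Poly(I:C) against LPS.

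With no filter on dim probes the counts were 2 (CpG) and 7 (Poly(I:C)) acute against naïve, 2 (CpG), 0 (LPS), 0 (Pam3CSK4) and 7 (Poly(I:C)) re-stimulated against naïve, 0 (CpG) and 0 (Poly(I:C)) re-stimulated against acute, 0 and 8 for acute Poly(I:C) against CpG and Pam3CSK4, and 0 for re-stimulated Poly(I:C) against LPS. Detection on every array of a group gave 4 for CpG re-stimulated against acute, 4 for LPS re-stimulated against naïve and 3 for acute Poly(I:C) against CpG.

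Leaving out each array in turn, acute against naïve ran from 1 to 25 with Poly(I:C), 0 to 12 with CpG, 0 to 1 with Pam3CSK4 and 23 to 35 with LPS. Re-stimulated against naïve ran from 1 to 19 with Poly(I:C), 0 to 12 with Pam3CSK4, 1 to 17 with CpG and 0 to 14 with LPS. The highest of each came without naïve replicate 3. Re-stimulated against acute ran from 0 to 14 with Poly(I:C), 0 to 0 with Pam3CSK4, 0 to 5 with CpG and 17 to 36 with LPS. It gave 0 to 18 for acute Poly(I:C) against CpG, 0 to 18 for acute Poly(I:C) against Pam3CSK4, 0 to 0 for acute CpG against Pam3CSK4, 0 to 15 for re-stimulated Poly(I:C) against LPS, and 0 to 2 and 0 to 5 for the re-stimulation change of Poly(I:C) against CpG and against Pam3CSK4.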
